A study of Mus musculus with 3 samples.

Results

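The 362 regions described here were DMC1 hotspots that the deposited table assigned to class UNK and flagged as overlapping a PRDM9-independent H3K4me3 peak. They were taken from the 19 autosomes by these 2 columns alone, and were 362 of 24586 sites in all, of 1916 autosomal UNK sites and of 2050 autosomal sites on such peaks. They are called UNK on-peak sites below. UNK stands where the table would name the PRDM9 variant that activates a hotspot (CAST or HUM); its meaning is not defined in the file. The sites were set beside 3 other autosomal groups: 1554 UNK sites off such peaks, 964 CAST sites on them and 676 HUM sites on them. A small class named KO, also not defined, was not compared.

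The animals were F1 males between C57BL/6J (B6) and CAST/EiJ (CAST), labelled B6xCAST, which carried the CAST allele of Prdm9 and a humanized allele (HUM), and the tissue was whole testis. The testis used for DMC1 ChIP-seq was that of 1 male of 10 weeks. The labels list an H3K4me3 library from an adult male of the same genotype, but the table's header credits the raw H3K4me3 data to Li et al, so which animal the H3K4me3 column came from is not settled. Every group of sites below comes from the same columns of 1 table. There was no replicate and no control group, so no difference has a replicate check and no p-value was computed; intervals are over sites and cover neither animals nor libraries. In whole testis, more cells carrying a mark and more of it per cell cannot be told apart.

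PRDM9 is a meiotic zinc-finger protein that binds DNA motifs and trimethylates histone H3 at lysine 4 on the nucleosomes beside them. SPO11 then cuts DNA at a subset of the marked places, and the recombinase DMC1 coats the single-stranded ends while they search for the homologue. H3K4me3 is also laid down without PRDM9, above all at active and CpG-rich promoters and at some enhancers, by other methyltransferases and in every cell type of the testis. In mice with PRDM9, breaks are largely directed away from these places, and in mice without it they move to them.

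The promoters below stand next to sites picked from the extremes, so the contrast in DMC1 between them follows from the choice. The first 4 sequences are the 250 bases upstream of the start of the genes next to the 4 sites with the least DMC1 for their H3K4me3, and the last 3 are those next to the 3 sites with the most DMC1 among sites within 1 kb of a gene start. Capitals mark matches, on either strand, to any of 7 motifs named further on. They were read from the RefSeq promoter table of GRCm38.p6, the build of mm10, in the direction of transcription, at chr12:103532315-103532564 (+), chr1:167308420-167308669 (+), chr6:35177366-35177615 (+), chr12:24708004-24708253 (+), chr12:59095341-59095590 (+), chr5:107597711-107597960 (+) and chr6:87428744-87428993 (+).
Ppp4r4: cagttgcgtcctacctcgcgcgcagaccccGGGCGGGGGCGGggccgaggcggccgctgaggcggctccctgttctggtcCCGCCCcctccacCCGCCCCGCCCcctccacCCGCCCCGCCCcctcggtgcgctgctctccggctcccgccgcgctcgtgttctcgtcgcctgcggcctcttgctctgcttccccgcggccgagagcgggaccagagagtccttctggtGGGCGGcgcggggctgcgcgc
Tmco1: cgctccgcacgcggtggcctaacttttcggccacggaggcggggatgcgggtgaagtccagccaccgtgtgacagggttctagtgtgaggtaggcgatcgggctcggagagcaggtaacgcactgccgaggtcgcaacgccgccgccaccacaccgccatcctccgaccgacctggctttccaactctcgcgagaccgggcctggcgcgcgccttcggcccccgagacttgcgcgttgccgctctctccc
Nup205: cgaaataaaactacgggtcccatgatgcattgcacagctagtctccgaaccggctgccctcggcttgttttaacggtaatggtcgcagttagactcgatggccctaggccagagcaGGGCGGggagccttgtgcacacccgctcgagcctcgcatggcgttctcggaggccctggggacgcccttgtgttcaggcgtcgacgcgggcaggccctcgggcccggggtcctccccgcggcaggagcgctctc
Rrm2: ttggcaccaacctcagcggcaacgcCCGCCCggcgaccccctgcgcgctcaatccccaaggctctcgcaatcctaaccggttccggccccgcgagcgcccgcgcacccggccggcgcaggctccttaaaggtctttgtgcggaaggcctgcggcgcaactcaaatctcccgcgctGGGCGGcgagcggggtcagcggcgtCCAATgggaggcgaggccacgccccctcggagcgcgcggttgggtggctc
Mia2: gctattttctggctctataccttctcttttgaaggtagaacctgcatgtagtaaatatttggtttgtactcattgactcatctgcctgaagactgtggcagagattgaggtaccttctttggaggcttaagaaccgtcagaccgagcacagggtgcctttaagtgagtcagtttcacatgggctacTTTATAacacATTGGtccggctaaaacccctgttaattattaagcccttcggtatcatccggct
Rpap2: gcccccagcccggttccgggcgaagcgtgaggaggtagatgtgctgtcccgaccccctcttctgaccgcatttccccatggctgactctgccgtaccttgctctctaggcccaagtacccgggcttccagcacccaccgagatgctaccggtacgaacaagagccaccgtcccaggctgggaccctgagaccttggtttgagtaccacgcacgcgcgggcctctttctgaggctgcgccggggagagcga
Bmp10: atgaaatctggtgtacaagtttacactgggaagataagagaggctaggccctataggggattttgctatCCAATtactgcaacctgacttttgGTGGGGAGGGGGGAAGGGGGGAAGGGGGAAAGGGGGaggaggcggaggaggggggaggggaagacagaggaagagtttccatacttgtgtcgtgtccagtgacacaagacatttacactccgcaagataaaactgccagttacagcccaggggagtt

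The first 4 stretches were rich in CpG, with 35 CpG dinucleotides in that of Ppp4r4, a regulatory subunit of a protein phosphatase, 32 in that of Tmco1, a calcium channel of the endoplasmic reticulum, 24 in that of Nup205, a nuclear pore component, and 34 in that of Rrm2, a subunit of ribonucleotide reductase. The site 0.703 kb downstream of the Ppp4r4 start had H3K4me3 of 340 and DMC1 of 14.2, each in the authors' units. The site 0.933 kb upstream of Tmco1 had 348 and 17.8, the site 0.449 kb downstream of Nup205 had 308 and 16.4, and the site 0.583 kb upstream of Rrm2 had 275 and 15. The lower 3 sequences were next to sites with more DMC1. The site 0.311 kb downstream of the start of Mia2, a factor of protein export from the endoplasmic reticulum, had DMC1 of 511 and H3K4me3 of 63.4, and its upstream stretch held 5 CpG. At Rpap2, a phosphatase of RNA polymerase II, DMC1 was 390 and H3K4me3 178, with 19 CpG. At Bmp10, a growth factor of the heart, DMC1 was 238 and H3K4me3 28.8, with 3 CpG and, in capitals, 5 overlapping matches to the human PRDM9 motif in a stretch rich in G.

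Across the 362 sites H3K4me3 was high and DMC1 was low for it. Median H3K4me3 was 31.4 (95% interval of the median 28.2 to 35.5), with a range from 0.548 to 363 and quartiles of 16.8 and 63.3, against a median of 11.6 over all autosomal sites. Since the overlap with an H3K4me3 peak is part of the choice, this level is a description. Median DMC1 was 35.7 (30.3 to 43.7), with a range from 7.52 to 673 and quartiles of 17.8 and 95.3, against 61.4 over all autosomal sites. Of the sites, 153 (42.3%) were in the highest 10% of autosomal sites by H3K4me3, but 12 (3.31%, exact binomial interval 1.72% to 5.72%) in the highest 10% by DMC1. The ratio of DMC1 to H3K4me3, which has no absolute meaning and is compared only between sites, had a median of 1.44 against 6.05, and 225 sites (62.2%, interval 56.9% to 67.2%) were in its lowest 10%. The flag also bears on the ratio through its denominator. The low ratio against all autosomal or UNK off-peak sites is therefore a description too.

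The flag was not the same as strong H3K4me3. A group of 52 sites (14.4%) had H3K4me3 under 10, and 22 (6.08%) were in the lowest 10% of autosomal sites. The lowest, on chromosome 6 at 101937159, 528 kb from the start of Cntn3, a neuronal adhesion protein, had H3K4me3 of 0.548 and DMC1 of 15.6. The weak sites are at the left of the plot of DMC1 against H3K4me3, and most sites next to gene starts are at its right.

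**Figure D1:**
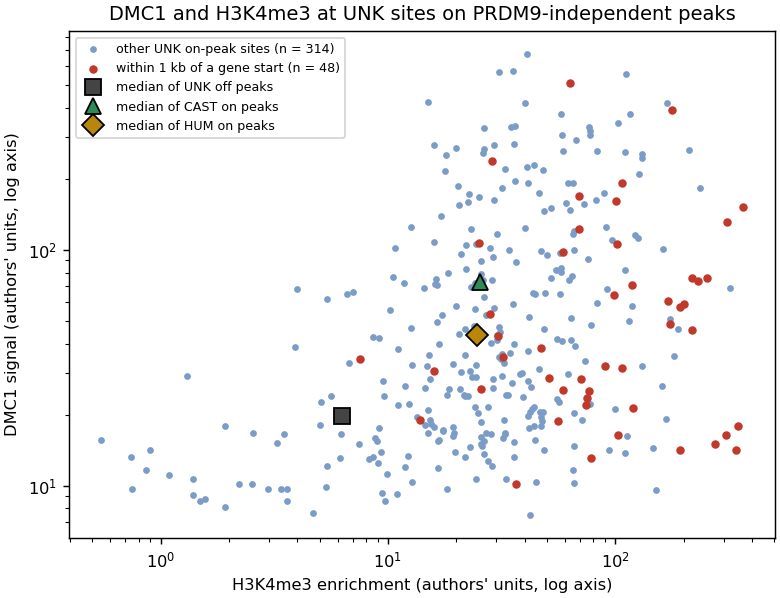
DMC1 signal (y, log axis) against H3K4me3 enrichment (x, log axis), in the authors' units, at the 362 UNK on-peak sites, with the 48 sites within 1 kb of a protein-coding gene start in red (chromosome 18 has no starts here and is drawn with the others) and the medians of 3 other groups as large symbols. Red points reach H3K4me3 of 363, and the 4 at the lower right, with H3K4me3 from 275 to 348, have DMC1 from 14.2 to 17.8.

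Taken over whole groups, DMC1 per H3K4me3 was lower at UNK on-peak sites than in each of the 3 other groups. The median ratio was 1.44 (interval 1.24 to 1.73) at UNK on-peak sites, 2.30 (2.08 to 2.51) at HUM on-peak sites, 3.73 (3.38 to 4.01) at CAST on-peak sites and 4.53 (4.36 to 4.77) at UNK off-peak sites. The difference was -0.67 on the log2 scale from HUM on-peak sites, lower on 18 of 19 autosomes. From CAST on-peak sites it was -1.37 and from UNK off-peak sites -1.65, each lower on 19 of 19. The share of sites in the lowest 10% by ratio was 62.2% at UNK on-peak sites, 46.6% at HUM on-peak sites (42.8% to 50.4%), 31.7% at CAST on-peak sites (28.8% to 34.8%) and 15.3% at UNK off-peak sites (13.5% to 17.1%).

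DMC1 itself ordered the groups differently. Median DMC1 was 73.1 (65.7 to 84.4) at CAST on-peak sites, 43.4 (40.5 to 48.6) at HUM on-peak sites, 35.7 at UNK on-peak sites and 19.7 (18.7 to 20.7) at UNK off-peak sites. UNK on-peak sites were 2.05-fold lower than CAST on-peak sites (log2 difference -1.03), in that direction on 17 of 19 autosomes. Against HUM on-peak sites the difference was -0.28, in that direction on 11 of 19, and the 2 median intervals overlapped. Against UNK off-peak sites it was 0.86, or 1.81-fold higher on 19 of 19 autosomes, but it became -0.026 without sites in the lowest 10% by either mark, where 36.6% of UNK off-peak sites and 18.8% of UNK on-peak sites lay by DMC1. The difference from HUM on-peak sites became 0.035 under the same filter.

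Within ranges of H3K4me3, UNK on-peak sites had the lowest median DMC1 of the groups in each range under 80, and not at 80 or more. Between 10 and 20 it was 28.2 (19.5 to 46.3), against 39.2 (31.0 to 43.1) at HUM on-peak, 48.1 (43.6 to 57.5) at CAST on-peak and 57.7 (42.3 to 73.1) at UNK off-peak sites, with intervals that overlapped that of UNK on-peak sites. Between 20 and 40, median DMC1 was 40.4 at 103 UNK on-peak sites, 56.6 at 218 HUM on-peak sites, 127 at 344 CAST on-peak sites and 173 at 185 UNK off-peak sites. Between 40 and 80 the medians were 51.5, 87.9, 163 and 285, in the same order. In both ranges the intervals of UNK on-peak and HUM on-peak sites overlapped (30.5 to 52.9 and 47.6 to 70.6; 31.1 to 81.7 and 61.3 to 118), and those of the other 2 groups lay above that of UNK on-peak sites. At H3K4me3 of 80 or more, the 61 UNK on-peak sites had a median DMC1 of 68.1 (49.9 to 106), the 67 CAST on-peak sites 90.9 (42.6 to 137) and the 54 HUM on-peak sites 44.8 (36.1 to 78.6), with intervals that overlapped. Under 10, UNK on-peak and off-peak sites had 14 (11.6 to 16.6) and 15.8 (15.3 to 16.4), and HUM on-peak and CAST on-peak sites stood above both, at 24.3 (19.1 to 30.7) and 28.3 (23.6 to 32.0). The median ratio was not lowest at UNK on-peak sites in the lowest and highest ranges. Under 10 it was 4.38, against 3.68 (HUM on-peak), 4.51 (CAST on-peak) and 4.41 (UNK off-peak). At 80 or more it was 0.418, against 0.381 (HUM on-peak) and 0.639 (CAST on-peak). The H3K4me3 value of an on-peak site does not separate what PRDM9 added from what is there without it, and the 2 cannot be told apart here.

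**Figure D2:**
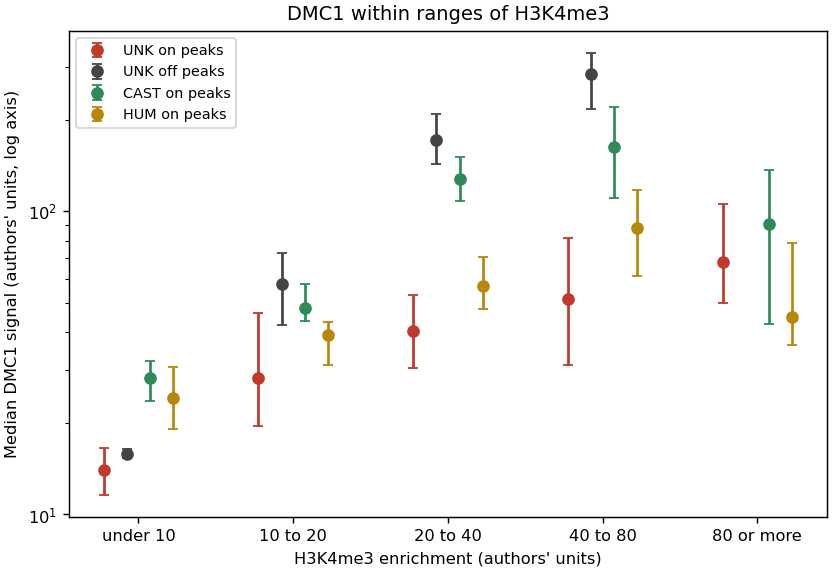
Median DMC1 signal (y, log axis, authors' units) in 5 ranges of H3K4me3 enrichment (x) for UNK on-peak sites and 3 other groups; bars are 95% order-statistic intervals of the median over sites, and UNK off-peak sites with under 5 sites in the highest range are not drawn. Between 20 and 80 the UNK on-peak sites are lowest, at 40.4 and 51.5.

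Across the 362 sites DMC1 followed H3K4me3 loosely, with a Spearman correlation of 0.379 (0.714 over 23631 autosomal sites, 0.703 at UNK off-peak sites). At the other on-peak groups it was 0.407 (CAST) and 0.339 (HUM). These are descriptions across sites that share the libraries.

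No column of the choice held the position of a site relative to genes. The peak flag can bring position with it, because PRDM9-independent H3K4me3 lies above all at promoters. Shares near starts set against all autosomal or UNK off-peak sites are therefore descriptions. Distances were taken to the starts of protein-coding genes in the RefSeq promoter table, which held 16456 of the 20151 such genes on 18 autosomes; starts on chromosome 18, with 16 of the sites, were not analysed here. Of 346 sites, 48 (13.9%, interval 10.4% to 18%) lay within 1 kb of a start, where 1.09% of all autosomal sites did. The share was 5.86% (4.18% to 7.95%) at HUM on-peak sites, 4.93% (3.63% to 6.51%) at CAST on-peak sites and 0.730% (0.365% to 1.30%) at UNK off-peak sites. The order changed with distance: within 2 kb the shares were 18.2%, 15.4% (HUM) and 13.3% (CAST), and within 5 kb UNK on-peak sites had the lowest of the 3, at 26.0% against 31.0% and 27.8%. Most of the sites were away from annotated starts, at a median of 24.0 kb, against 17.1 kb at HUM on-peak, 20.65 kb at CAST on-peak and 58.0 kb at UNK off-peak sites. Of the 298 farther than 1 kb, 34 lay within 1 kb of either annotated boundary of a gene of any kind, non-coding genes included (11.4%, interval 8.03% to 15.6%). Over whole groups this share was 6.78% of all autosomal sites, 20.7% of UNK on-peak, 17.1% of CAST on-peak and 17.9% of HUM on-peak sites. Inside protein-coding genes lay 182 of the 362 (50.3%, interval 45.0% to 55.5%), against 53.9% of all autosomal sites; exons, introns and enhancers were not assigned.

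Around the starts the sites stood on both sides. Within 1 kb, 27 lay downstream and 21 upstream. Within 0.25 kb of the start were 4 (1.16%, interval 0.316% to 2.93%, against 0.229% of all autosomal, 0.964% of CAST on-peak and 0.924% of HUM on-peak sites), 17 at 0.25 to 0.5 kb, 11 at 0.5 to 0.75 kb and 16 at 0.75 to 1 kb. From 1 to 1.5 kb there were 9, and from 1.5 to 2 kb 6. One of the 4 was 0.01 kb upstream of Dnajb7, a chaperone cofactor (chromosome 15, 81408283), with DMC1 of 193 and H3K4me3 of 108.

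**Figure D3:**
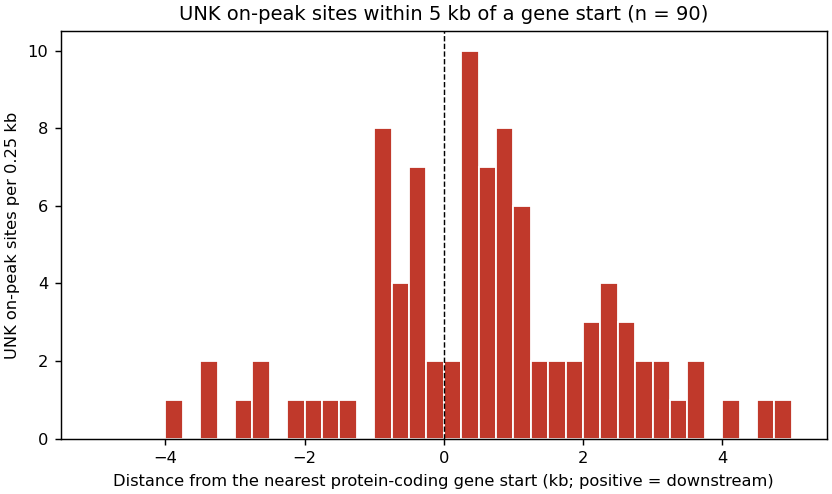
Number of UNK on-peak sites per 0.25 kb (y) by distance from the nearest protein-coding gene start (x, kb, positive downstream) for the 90 sites within 5 kb. Most of the 48 sites within 1 kb stand at 0.25 to 1 kb on either side, and the 2 bars next to the start hold 4.

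The sites next to gene starts had the strongest H3K4me3 without more DMC1. Median H3K4me3 was 94.5 (68.9 to 119) at the 48 sites and 28.5 (25.6 to 31.8) at the 298 farther ones, 3.31-fold apart, while median DMC1 was 40.8 (28.2 to 64.1) and 35.9 (29.0 to 44.3). The ratio was 0.408 (0.313 to 0.999) against 1.55 (1.38 to 1.92), and 42 of the 48 (87.5%) were in the lowest 10% of autosomal sites by ratio, as were 174 of the 298 (58.4%). Within the 48, DMC1 showed almost no relation to H3K4me3 (Spearman 0.034), and within the 298 it showed one of 0.426. Too few autosomes held 5 sites of each kind to count directions. Sites next to starts in the other on-peak groups had lower H3K4me3, with a median of 47.3 (29.1 to 74.7) for the 46 of class CAST and 55.8 (38.3 to 96.0) for the 38 of class HUM. Their ratios were 2.18 (1.11 to 5.27) and 0.764 (0.532 to 1.26).

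Promoter sequence divided the 48 further. CpG content is given as the number of CpG found over that predicted from the C and G present in the 250 bases upstream of the start; 0.6 is a usual mark of a CpG island. The median was 0.597 for the 48 windows, 0.547 for all 20084 protein-coding windows on the same autosomes and 0.374 for the 84 next to CAST or HUM on-peak sites. At or over 0.6 were 24 of 48 (50%, interval 35.2% to 64.8%), 45.9% of all and 26.2% (17.2% to 36.9%) of the 84. The 24 sites next to CpG-rich windows had a median H3K4me3 of 176 (89.7 to 252) and DMC1 of 31.9 (17.8 to 75.7). The 24 next to CpG-poor windows had 53.5 (28.8 to 100) and 44.4 (28.6 to 106). The ratio was 0.298 (0.167 to 0.418) and 1.07 (0.398 to 1.91). This division was made after the levels at gene starts were seen.

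The motifs searched on both strands were GGGCGG (the GC box of Sp1 factors), CCGGAAG (ETS factors), CCAAT (NF-Y), TGACGTCA (the cyclic AMP response element) and TATAAA (the TATA box), with the palindromic motif of NRF1 and the motif of common human PRDM9 alleles, the one in capitals at Bmp10. The GC box was in 24 of the 48 windows (50%, same interval) and in 43.4% of all windows. CCAAT was in 15 (31.3%, against 35.3%), the ETS motif in 5 (10.4%, against 9.21%), the TATA box in 3 (6.25%, against 11.7%), the cyclic AMP element in 1 (2.08%, against 1.98%) and the NRF1 motif in 0 (against 5.29%; exact upper bound 7.40%). The human PRDM9 motif was in 5 (10.4%, 3.47% to 22.7%), against 6.13% of all windows. Each of these shares has an interval that holds the share of all windows. Matches of the GC box and of CCAAT overlapped by some letters in 2 windows, and no other pair of motifs did. The windows are next to the sites, not at their centres, and the sequence at the centres was not analysed here.

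The genes next to the sites belonged to few of 12 gene lists. Of 16456 autosomal protein-coding genes with a start in the table, 53 (0.322%) had an UNK on-peak site within 1 kb. Among 16 nuclear pore genes 1 did, Nup205, and among 320 vomeronasal receptor genes 1 did, Vmn2r29 (chromosome 7, 7278563; 0.274 kb upstream, DMC1 21.9, H3K4me3 74.5). None did among 65 genes of cytosolic and 69 of mitochondrial ribosomal proteins, 32 of the proteasome, 325 Zfp zinc-finger genes and 935 olfactory receptor genes. None did among 23 genes of meiotic break formation and repair, 14 of the chromosome axis and synaptonemal complex, 12 of spermatogonia, 13 of spermatids and 4 of Sertoli and Leydig cells. At a share of 0.322% most of these lists are too short for a count of 0 to say anything about them. Genes of chromosome 18 had no starts and could not be counted. There, a site lay inside Rps14 (60775778; H3K4me3 182, DMC1 35.4) and another inside Zfp474 (52616817; H3K4me3 131, DMC1 32.1). These genes have names of the ribosomal and Zfp kind.

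Among the 8 sites with the most DMC1, 1 lay within 1 kb of a start, the one in Mia2 shown above (chromosome 12, 59095902). The strongest was inside Hhipl1, 8.20 kb upstream of Cyp46a1, a cholesterol hydroxylase of neurons (chromosome 12, 108326113), with DMC1 of 673 and H3K4me3 of 40.9. It was followed by a site inside Tmem87a (chromosome 2, 120372087; DMC1 574, H3K4me3 35.5) and one between genes, 264 kb from Pou4f1, a transcription factor of sensory neurons (chromosome 14, 104204458; DMC1 569, H3K4me3 30.7). The next was inside Eri3, an exoribonuclease, 1.31 kb from its start (chromosome 4, 117551631; DMC1 555, H3K4me3 112).

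The other 3 were inside Prkcz, an atypical protein kinase C, 2.06 kb from its start (chromosome 4, 155359367; DMC1 424, H3K4me3 15.1), inside Dpf3, a chromatin remodelling subunit (chromosome 12, 83430999; DMC1 421, H3K4me3 40.03), and inside Pde7b, a cyclic nucleotide phosphodiesterase (chromosome 10, 20400784; DMC1 417, H3K4me3 169). Of the 8, this last, the Eri3 site and no other had H3K4me3 over 100.

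The 5 sites with the most H3K4me3 had DMC1 from 14.2 to 152. Besides Ppp4r4 and Tmco1 they were 0.732 kb downstream of the start of Fam149b (chromosome 14, 20348894; H3K4me3 363, DMC1 152), 0.718 kb downstream of that of Snrpc, a protein of the U1 splicing particle (chromosome 17, 27840805; 309 and 131), and between genes 56.1 kb from Tspan9 (chromosome 6, 128199652; 318 and 68.9). At nearly the same H3K4me3, the Fam149b and Ppp4r4 sites thus stood at opposite ends of this range of DMC1. The fifth lowest ratio, after the 4 promoters shown, was in no annotated gene, 482 kb from the nearest start and 277 kb from the nearest other site (chromosome 3, 6138003; H3K4me3 151, DMC1 9.54).

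High ratios came in 2 kinds. At 3 of the 5 highest, H3K4me3 was 0.548 to 1.30 and DMC1 13.25 to 29.0, namely the site near Cntn3, one inside Dock2, an exchange factor of lymphocyte migration (chromosome 11, 34682012), and one inside Kcnt2, a potassium channel (chromosome 1, 140474636). At the other 2, in Prkcz and near Pou4f1, DMC1 was 424 and 569.

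The homologue that carries each mark was read from the B6 share, the signal on the B6 homologue over that on both. It was given for DMC1 at 308 of the 362 sites (85.1%, against 92.3% of all autosomal sites) and for H3K4me3 at 338 (93.4%, against 93.6%). H3K4me3 was mostly even between the homologues, with a median share of 0.514 and quartiles of 0.45 and 0.625. It was between 0.3 and 0.7 at 260 sites (76.9%, interval 72.1% to 81.3%), against 61.5% of all autosomal sites, over 0.9 at 10 (2.96%, against 8.95%) and under 0.1 at 3 (0.888%, against 4.86%). In the middle range were 76.4% of HUM on-peak (73.0% to 79.6%), 71.4% of CAST on-peak (68.4% to 74.2%) and 51.1% of UNK off-peak sites (48.4% to 53.8%).

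DMC1 was less even at the same sites. Its share was between 0.3 and 0.7 at 128 of 308 (41.6%, interval 36.0% to 47.3%; 45.6% of all autosomal sites), over 0.9 at 55 (17.9%, 13.7% to 22.6%; 19.3% of all) and under 0.1 at 44 (14.3%, 10.6% to 18.7%; 14.3% of all). At 255 of the 308 sites with both shares DMC1 was farther from 0.5 than H3K4me3, with median distances of 0.287 and 0.0752. This was so in the other groups too, at 506 of 612 HUM on-peak, 697 of 904 CAST on-peak and 1012 of 1270 UNK off-peak sites. Among the 240 sites with H3K4me3 between 0.3 and 0.7 and a DMC1 share, 52 (21.7%, 16.6% to 27.4%) had DMC1 under 0.1 or over 0.9, where 6.28% of all such autosomal sites did. HUM on-peak sites had 20.04% (16.5% to 24.0%), CAST on-peak sites 18.2% (15.3% to 21.4%) and UNK off-peak sites 11.7% (9.34% to 14.5%). Even H3K4me3 with DMC1 on 1 homologue had shares in the 3 on-peak groups whose intervals overlapped. The number of reads behind a share is unknown, and shares of weakly covered sites vary more; the part of this in these counts was not tested.

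Next to gene starts H3K4me3 was closer to even than farther away. At 46 such sites its share had quartiles of 0.482 and 0.537, was between 0.4 and 0.6 at 39 (84.8%, interval 71.1% to 93.7%) and reached neither 0.1 nor 0.9. At 276 farther sites the quartiles were 0.443 and 0.646, and 53.3% (47.2% to 59.3%) were between 0.4 and 0.6; over all autosomal sites 44.3% were. In the other on-peak groups the quartiles next to starts were 0.462 and 0.541 at 36 HUM sites, and 0.498 and 0.595 at 45 CAST sites. The UNK on-peak sites next to starts also had 3.31-fold more H3K4me3 than the farther ones. Its part in the narrower shares was not tested. DMC1 at the 44 UNK on-peak sites next to starts with a share still ranged from 0 to 1, with quartiles of 0.352 and 0.72, with 5 over 0.9 and 4 under 0.1.

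**Figure D4:**
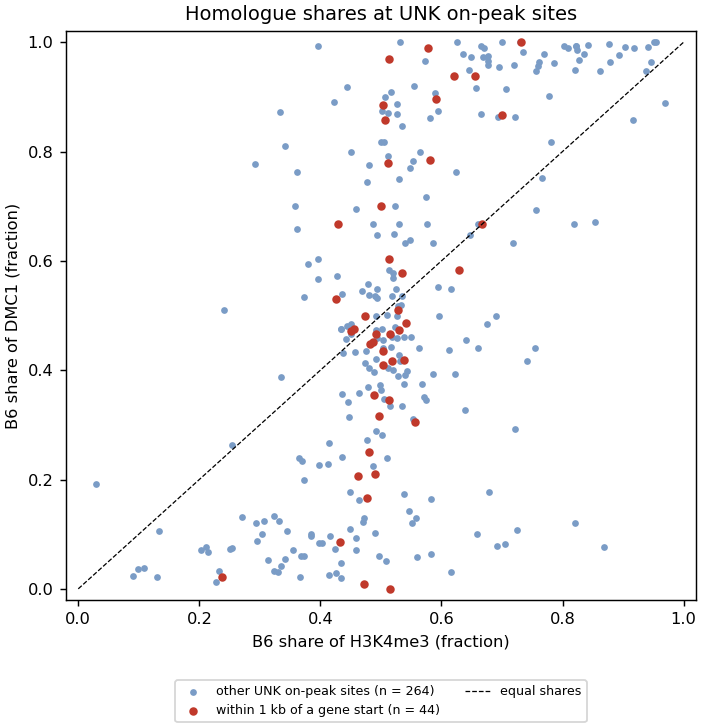
B6 share of DMC1 (y, fraction) against B6 share of H3K4me3 (x, fraction) at the 308 UNK on-peak sites with both; red points are the 44 within 1 kb of a gene start and the dashed line marks equal shares. Points form a column near an H3K4me3 share of 0.5 that spans DMC1 shares from 0 to 1.

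Among the 181 sites at or over the median DMC1, the 5 with the highest B6 share included the Prkcz site (DMC1 share 0.997, H3K4me3 share 0.877) and one 0.667 kb downstream of the start of Tspan2, a tetraspanin of myelin-forming cells (chromosome 3, 102735882; DMC1 share 1, H3K4me3 share 0.731). Another lay inside Alk, a receptor kinase (chromosome 17, 72119074), where DMC1 had a share of 1 and H3K4me3 one of 0.531. The other 2 were between genes, 210 kb from Gm2102 (chromosome 1, 78008383; shares 1 and 0.955) and 335 kb from Efnb2, an ephrin (chromosome 8, 8995973; 0.994 and 0.843).

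At the opposite end the lowest share was 0.857 kb downstream of the start of Cntrl, a protein of the mother centriole (chromosome 2, 35133091). There DMC1, at 106, had a B6 share of 0.00935, while H3K4me3 had one of 0.471. The next were 45.6 kb upstream of Myh2, a muscle myosin (chromosome 11, 67125383; 0.0118 and 0.227), inside Mideas (chromosome 12, 84153743; 0.0192 and 0.435), inside Phactr1, an actin regulator (chromosome 13, 42884201; 0.0208 and 0.366), and 8.20 kb upstream of Mdfi (chromosome 17, 47842890; 0.0218 and 0.131). Nearly all DMC1 was thus on the CAST homologue at these 5, with H3K4me3 from mostly CAST to almost even.

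Stronger and weaker sites were also set side by side. The 181 stronger sites had 40 of 174 shares over 0.9 and 20 under 0.1, and the 181 weaker ones 15 and 24 of 134. Sites with a share over 0.9 had a median DMC1 of 72.6, those under 0.1 had 32.7 and those between 0.3 and 0.7 had 51.6. The median was likewise higher over 0.9 than under 0.1 at CAST on-peak sites (147 and 58.0), and lower at HUM on-peak sites (41.8 and 57.04). Where H3K4me3 was under 10, the median DMC1 share was 0.122, with 19 of 28 under 0.5 (67.9%, interval 47.6% to 84.1%), and UNK off-peak sites of that range had 0.277, with 63.5% (60.1% to 66.8%). HUM on-peak sites of that range had 0.412, with 61.8% (50.9% to 71.9%), and CAST on-peak sites 0.5, with 49.2% (40.02% to 58.4%). At H3K4me3 of 10 or more the median was 0.486 at UNK on-peak and 0.506 at UNK off-peak sites. A share was given at 28 of these 52 weak sites, so these medians cover a part of them.

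The sites were not crowded against assigned hotspots. The median distance to the nearest other site was 25.5 kb, against 28.2 kb over all autosomal sites, and 37 of 362 (10.2%, interval 7.30% to 13.8%) had a CAST or HUM site within 5 kb, against 8.87%. At these 37 the neighbour had the higher DMC1 in 25 cases and the lower H3K4me3 in 29, with medians of 58.7 and 11.4 for neighbours and 35.7 and 35.5 for the sites themselves. Of the neighbours 18 were CAST and 19 HUM, and 11 lay on PRDM9-independent peaks. The sites were chosen for such a peak and the neighbours were not, so the lower H3K4me3 of the neighbours is a description. Over all autosomal sites the medians were 61.4 (DMC1) and 11.6 (H3K4me3), near those of the neighbours.

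The closest pair was 0.92 kb apart in Cryga, a lens crystallin (chromosome 1, 65100838; DMC1 16.7), beside a HUM site with DMC1 of 22.9. The next was 1.16 kb, at a site 0.341 kb downstream of the start of Acin1, a splicing-associated protein (chromosome 14, 54653344), which had DMC1 of 169 beside a CAST site with 356. At 1.75 kb, a site between genes (chromosome 15, 40508318; DMC1 23.7, H3K4me3 39.2) lay beside an UNK off-peak site with DMC1 of 19.9 and H3K4me3 of 3.15.

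All 19 autosomes held UNK on-peak sites, from 8 on chromosome 13 to 29 on chromosome 3. As a share of a chromosome's UNK sites they made up from 9.78% (9 of 92, chromosome 14) to 28.0% (26 of 93, chromosome 10). The median ratio per chromosome ran from 0.683 on chromosome 2 to 3.22 on chromosome 12, and was under the median of 6.05 for all autosomal sites on each.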

How the data were processed

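Per the file headers, the deposited table gives the centre of each DMC1 peak (mm10), its DMC1 signal from the authors' peak caller, an H3K4me3 signal credited to reads of an earlier study by Li and colleagues, the B6 fraction of each mark, the PRDM9 variant inferred by the authors, and a deposited flag, used here as it stands, for overlap with a PRDM9-independent H3K4me3 peak. The aligner was BWA, per the submitters' processing notes, in version 0.7.15 for the H3K4me3 library of the series; no source used here states a scaling to depth. The depth behind a value is unknown. Of the H3K4me3 values, 114 of 362 here and 14892 of 23631 on autosomes also occur at another site. Sites were grouped by the class and flag columns; medians have order-statistic intervals and shares exact Clopper-Pearson intervals (95%). Differences are between medians of log2 values with no pseudocount, and their direction was counted over autosomes with at least 5 sites of each group. Regions were named by rank of DMC1, H3K4me3, ratio and B6 share, by closeness to another site, and by gene list. Alternatives were a pseudocount, means, filters, added X sites, share limits and distances. Functions were tested on simulated data (Python 3.11.15, SciPy 1.17.1). The members, lists and motifs were chosen with earlier results of these data known. The MNase-seq library was left out of the comparisons, and so were X sites except in the alternative that added them.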

Additional observations from a re-analysis of the deposited data

How the results depend on the processing

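No paired analysis was possible because there is 1 library per assay and no test. The ratio of DMC1 to H3K4me3 stayed lower at UNK on-peak sites under every alternative run, by -1.54 to -2.25 on the log2 scale against UNK off-peak, -1.14 to -1.53 against CAST on-peak and -0.56 to -0.77 against HUM on-peak sites. Without sites in the lowest 10% by either mark, the DMC1 differences turned to -0.026 (UNK off-peak) and 0.035 (HUM on-peak) and came to -0.70 (CAST on-peak), and H3K4me3 against UNK off-peak sites to 1.62; the filter leaves 290 of 362 and 849 of 1554 UNK sites. Without repeated H3K4me3 values the differences from UNK off-peak sites were 0.37 in DMC1, 1.88 in H3K4me3 and -2.25 in ratio, and H3K4me3 against CAST on-peak sites 0.47. With means, DMC1 and H3K4me3 against UNK off-peak sites were 0.49 and 2.12. The cause of these shifts was not tested. With limits of 0.05 and 0.95, DMC1 was on the B6 homologue only at 13.3% and on the CAST homologue only at 5.84%, and H3K4me3 on B6 only at 1.18%; with 0.2 and 0.8 these were 25.3%, 22.7% and 8.58%. Among the stronger sites DMC1 on B6 only was 23.0%. Within 0.5 kb of a start lay 6.07% and within 2 kb 18.2%. Chosen after seeing the data were the sites farther than 1 kb from a start alone, and added starts of long non-coding RNA genes, which narrowed the contrast at starts: 17.6% of UNK on-peak, 9.55% of HUM on-peak, 8.46% of CAST on-peak and 1.79% of UNK off-peak sites then lay within 1 kb. Of the 87 alternatives to main values, 68 stayed close to the main value. For a share, close meant inside its interval. For a log2 difference it meant a shift under 0.26 (DMC1), 0.17 (H3K4me3) or 0.24 (ratio). These limits came from the interval of the UNK on-peak median alone, as no interval of a difference was computed. Unknown depth limits every share and level.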

Other observations

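The X was outside the chosen sites. It held 15 UNK sites on PRDM9-independent peaks among 955 sites, with a median DMC1 of 78.0 (range 8.82 to 526) and a median H3K4me3 of 43.5 (range 1.06 to 209). Of 11 with a DMC1 share, 10 were over 0.9 and 1 was under 0.1 (position 169685329; DMC1 91.3, H3K4me3 12.0, DMC1 share 0.0856, H3K4me3 share 0.538). At the 10, the H3K4me3 share was 0.985 to 1. Males carry a single X, so these 10 shares do not compare homologues as on the autosomes.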
